A study of Mus musculus with 34 samples.

Results

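The UDP-glucuronosyltransferases (Ugt genes) and the cytosolic sulfotransferases (Sult genes) were examined in liver RNA of mouse pups whose thyroid hormone level had been altered for a short time. Members were all probes whose accession matched a mouse RefSeq symbol beginning with Ugt or Sult and a number. The rule gave 35 probes for 27 genes, with 20 probes for 15 Ugt genes and 15 probes for 12 Sult genes. The array held 33269 genes when names without a RefSeq symbol were counted as genes. In 7 genes the array held more than 1 probe. Of the 35 probes, 28 gave a signal well above background for the pup RNA on all 34 arrays and 32 did so on at least 17.

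Both families join a polar group to small molecules, which makes them soluble and ready for export into bile or blood. Ugt enzymes sit in the endoplasmic reticulum and transfer glucuronic acid from UDP-glucuronic acid, and Sult enzymes work in the cytosol and transfer sulfate from the donor PAPS. In liver they act on bilirubin, steroids, bile acids and drugs, and also on T4 and T3, whose glucuronides and sulfates are cleared in bile or deiodinated.

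All animals were C57BL/6 pups collected on PND 15, 4 hours after an injection. Control pups (4 males, 4 females) were injected with saline. Hypo pups (4 males, 5 females) also received saline, and their dams drank water with 0.05% methimazole and 1% perchlorate, which block hormone synthesis and iodide uptake by the thyroid, for 3 days. Hypo+ pups (4 males, 3 females) had the same exposure and were injected with T4 at 20 and T3 at 2 μg/100 g, and hyper pups (5 males, 5 females) had no exposure and received T4 at 50 and T3 at 5 μg/100 g. The exposure of the pups passed through the dam, pups with the highest serum T4 after the same treatment were set apart from the hypo+ group by the study, and hypo+ and hyper pups received different doses. Nothing in the labels states the litter of a pup, so that p-values measure the spread between pups.

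Each array compared RNA of 1 pup, labelled with Cy5, with a universal mouse reference RNA, labelled with Cy3, on all arrays in the same orientation. Values are log2 ratios of pup to reference after loess normalization, and a difference of 2 groups is given as a log2 fold-change with its standard error (SE). A probe was called when its p-value in limma, adjusted by Benjamini-Hochberg over all 41174 probes, was under 0.05. Arrays give no counts, so that precision was set by the number of arrays and by the spread between them at each probe. Median Cy5 signals were 146 to 199 and median Cy3 signals 64 to 100. In 4 livers (control males 832 and 522, control female 831, hypo+ female 543) pancreatic acinar markers were raised, with a mean log2 ratio of 2.51 to 4.92 over 13 genes against 0.74 to 1.14 in the other livers. Arrays lay on 11 slides, only 1 of which held both sexes, so that slide and sex can hardly be told apart. In whole liver RNA, fewer cells of a type and less RNA per cell cannot be told apart.

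Relative to the reference RNA, which pools RNA of several tissues or cells, most members were far higher in the livers of the 8 control pups. The mean log2 ratio was above 4 for 16 of the 35 probes and within 0.5 of 0 for 9. The highest ratios belonged to Sult2a2, which sulfates bile acids and steroids (7.47 ± 0.37, SD, n = 8), Sult1d1, a catecholamine sulfotransferase (6.91 ± 0.41, SD, n = 8), and Sult1a1, the phenol sulfotransferase (6.67 ± 0.40, SD, n = 8). The lowest belonged to Sult2b1, which sulfates cholesterol in skin (-0.06 ± 0.09, SD, n = 8), Sult4a1, a brain member (-0.03 ± 0.06, SD, n = 8, for the dimmer of its 2 probes), and Ugt8a, the galactosyltransferase of myelin lipids (0.01 ± 0.07, SD, n = 8, for the dimmer of its 2 probes). These are ratios to the reference for each probe and not levels, so that they do not order the transcripts by abundance in liver.

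**Figure D1:**
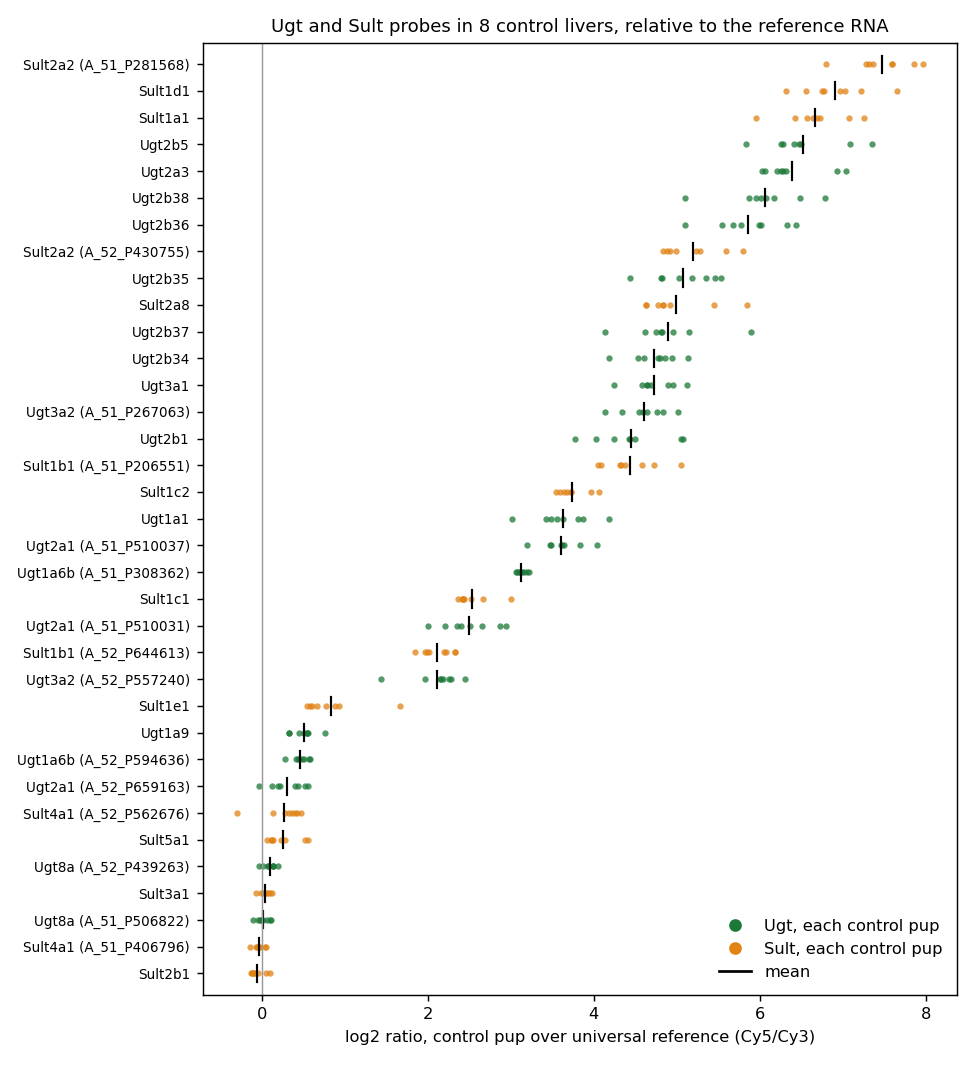
Log2 ratio of control pup to reference RNA (x axis) for each of the 35 probes (y axis), with 1 point per control pup (n = 8) and a line at the mean. Ugt probes are green and Sult probes orange. The Ugt2b probes lie between 4.44 and 6.53, and the probes of Ugt8a, Sult3a1 and Sult2b1 lie near 0.

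The 7 Ugt2b probes, whose enzymes act on steroids and bile acids, had mean control ratios between 4.44 and 6.53. The 3 probes of Ugt3a1 and Ugt3a2, which use other sugars than glucuronic acid, lay between 2.11 and 4.72. The dim probes were those of Sult3a1, Sult4a1 and Ugt8a. Sult3a1 was well above background for the pup RNA on 11 arrays, the dimmer Ugt8a probe on 8 and the dimmer Sult4a1 probe on 1, so that differences between groups at these probes rest on signal close to background. Hepatocyte markers were all well above background on all arrays (6 genes), with a mean log2 ratio over these genes of 4.40 to 6.13 in the 34 livers.

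When each sex was tested on its own, no member was called in any comparison. In hypo against control the background share of called probes was 0.0971% in males and 0.155% in females, and 0 of 35 members passed, with 3 in males and 7 in females at an unadjusted p under 0.05 (limma), where 5.18% and 4.72% of all probes stood. In hyper against control 0.0753% and 0.158% of all probes were called and 0 members, with 1 member in each sex at an unadjusted p under 0.05, where 2.97% and 6.16% of all probes stood. In hypo+ against control 0.0267% and 0.0219% were called and 0 members, with 3 members in males and 2 in females unadjusted, where 7.56% and 4.79% stood. In hypo+ against hypo 0.369% and 0.556% were called and 0 members, with 1 and 3 unadjusted, where 9.18% and 7.75% stood. No member had groups that did not overlap in hyper against control, where 1.27% of all probes did in males and 2.55% in females, or in hypo+ against control in males, where 4.11% did. The lowest adjusted p of a member in these 8 tests was 0.0572, for Ugt1a9 in hypo females (limma).

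With the 34 arrays in 1 fit and the male and female differences averaged, 4 genes of the families were called. Ugt1a9, Ugt2b35 and Sult1b1 were higher in hypo than in control livers, and Sult5a1 was higher in hyper than in control and in hypo+ than in hypo livers. The log2 fold-changes of the 4 genes were 0.32 to 0.59, which is 1.25-fold to 1.51-fold. Brothers and sisters may share a dam, and this fit does not account for that.

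**Figure D2:**
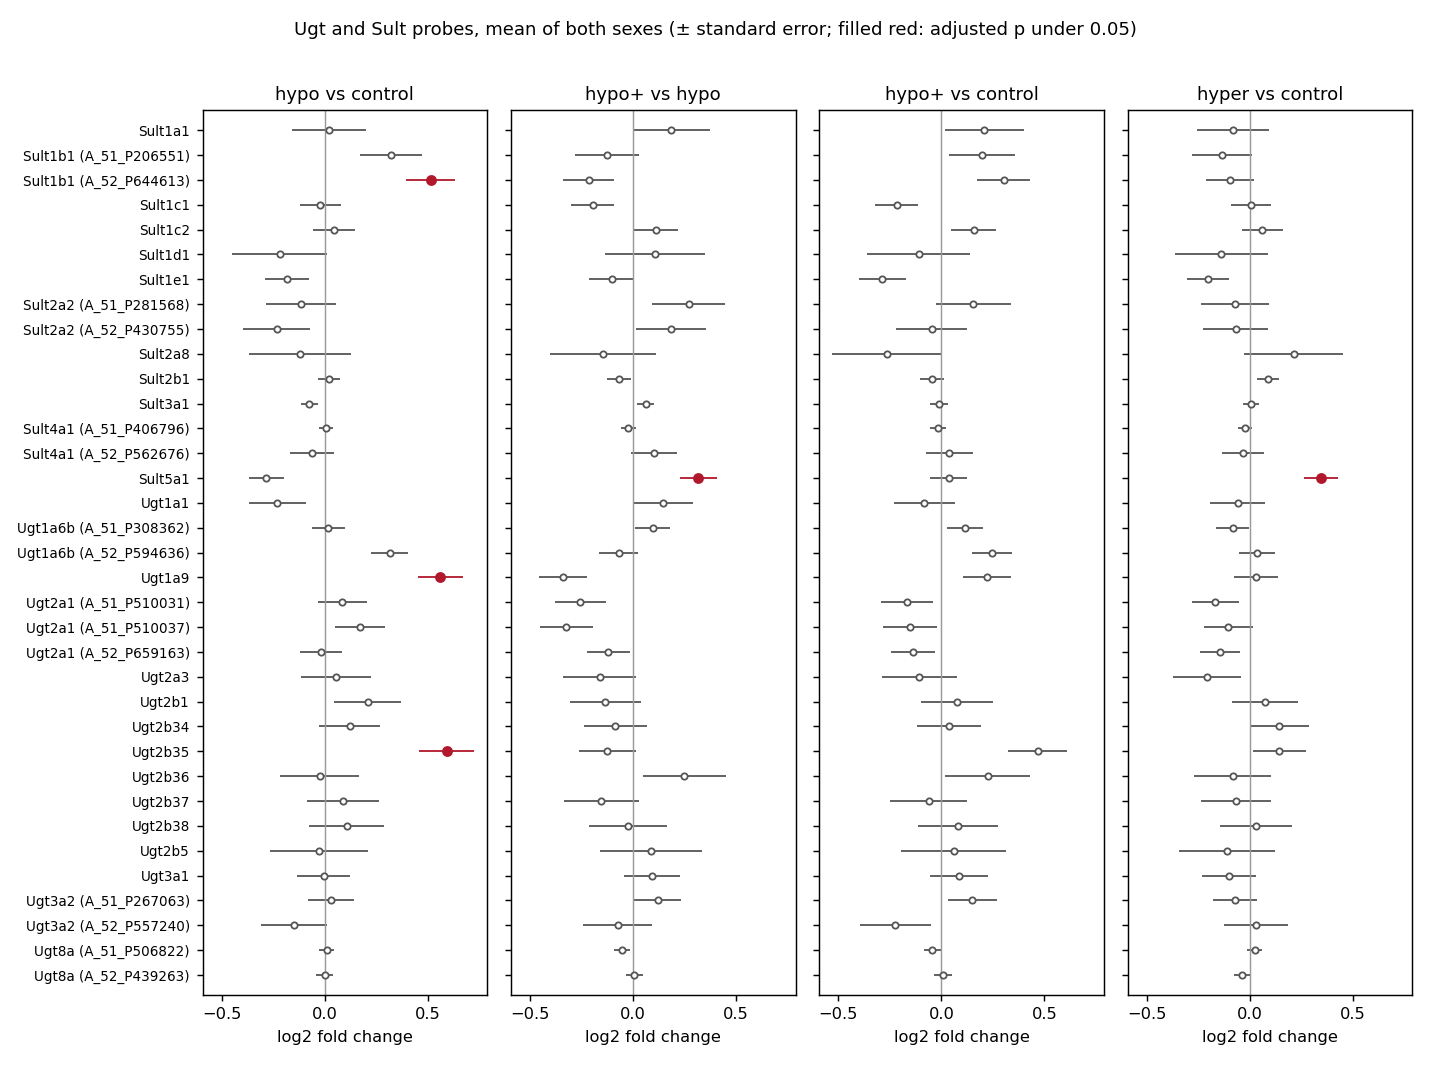
Log2 fold-change (x axis) with its standard error for the 35 probes (y axis) in 4 comparisons, as the mean of both sexes. Filled red points passed an adjusted p of 0.05, which were 3 probes in hypo against control, 1 in hypo+ against hypo, 0 in hypo+ against control and 1 in hyper against control.

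The sequences before the start site of these 4 genes are shown because these are the members that were called. Each line gives the 250 bases upstream of a RefSeq start in build GRCm38.p6, 5′ to 3′ on the strand of the gene, with capitals for AGGTCA, the half-site that nuclear receptors such as the thyroid hormone receptor recognise, and for GTTAAT, a half-site of HNF1, on either strand.
Ugt1a9, chr1:88070529-88070778, plus strand: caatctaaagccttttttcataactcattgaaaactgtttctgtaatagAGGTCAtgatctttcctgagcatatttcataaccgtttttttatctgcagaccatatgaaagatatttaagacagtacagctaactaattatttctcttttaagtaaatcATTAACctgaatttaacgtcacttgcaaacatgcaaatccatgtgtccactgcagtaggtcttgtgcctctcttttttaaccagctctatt
Ugt2b35, chr5:87000610-87000859, plus strand: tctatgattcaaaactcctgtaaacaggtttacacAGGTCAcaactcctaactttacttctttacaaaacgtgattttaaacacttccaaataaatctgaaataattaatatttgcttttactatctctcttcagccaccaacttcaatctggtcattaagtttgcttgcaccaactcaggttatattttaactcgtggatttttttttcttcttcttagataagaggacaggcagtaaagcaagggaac
Sult1b1, chr5:87538196-87538445, minus strand: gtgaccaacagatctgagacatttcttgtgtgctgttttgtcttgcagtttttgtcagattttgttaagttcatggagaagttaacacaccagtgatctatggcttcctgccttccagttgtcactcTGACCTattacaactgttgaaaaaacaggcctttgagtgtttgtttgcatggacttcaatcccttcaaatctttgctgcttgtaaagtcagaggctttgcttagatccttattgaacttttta
Sult5a1, chr8:123158281-123158530, minus strand: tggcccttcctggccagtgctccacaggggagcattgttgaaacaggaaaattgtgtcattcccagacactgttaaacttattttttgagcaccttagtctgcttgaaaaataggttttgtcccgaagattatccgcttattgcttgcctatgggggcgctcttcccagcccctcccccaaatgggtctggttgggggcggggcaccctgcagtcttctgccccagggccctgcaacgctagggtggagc
The half-site AGGTCA lay 201 bases before the start of Ugt1a9, 215 before that of Ugt2b35 and 123 before that of Sult1b1, and none was in the Sult5a1 window. Sult1b1 has a second annotated start whose window, not shown here, held no AGGTCA. That window held GCGTG, the core motif of the receptor AHR, 196 bases before the start. A RefSeq window was found for 23 of the 27 members (26 windows), and AGGTCA was in 9 of these 26, against 14.02% of 32851 windows of all genes. The direct repeat of AGGTCA with 4 bases between its copies was in 0 member windows (0.02% of all) and TGACNNNGC, the core of the antioxidant response element, in 0 (10.16% of all). GTTAAT was in 6 member windows, among them those of Ugt1a1, Ugt1a9 and Sult1a1, against 6.43% of all. GCGTG was in 4 member windows, against 28.16% of all. A match of so few letters is a description of the window and not a binding site, and neighbouring Ugt2b genes share sequence.

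In hypo against control livers, 1.09% of all probes were called, and 3 of the 35 members, all of them higher, where 0.522% of all probes were called higher. At an unadjusted p under 0.05 (limma) there were 6 members, 5 of them higher, where 8.5% of all probes stood. Over all 35 probes the median log2 fold-change was 0.01, against 0.00 over all probes (-2.31e-05), and 20 probes were higher and 15 lower. The SE of the members was 0.04 to 0.25.

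Ugt1a9 glucuronidates phenols. Its log2 ratio was 0.33, 0.54, 0.55 and 0.56 in control males and 0.49, 0.88, 1.21 and 1.31 in hypo males. In control females it was 0.33, 0.45, 0.51 and 0.76, and in hypo females 0.88, 1.00, 1.01, 1.35 and 1.56. In females every hypo pup lay above every control pup, as did 1 other member, where 1.78% of all probes had groups that did not overlap, and in males 1 hypo pup (0.49) lay among the controls. The log2 fold-change was 0.48 in males, 0.65 in females and 0.56 (SE 0.11, adjusted p = 0.00427, limma) in the mean of both. On 7 slides that held a hypo and a control pup of the same sex, the hypo pup was higher on 6, by a median of 0.55. The reference RNA gave a signal well above background at this probe on 14 of the 34 arrays.

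Ugt2b35 belongs to the Ugt2b cluster on chromosome 5. Its log2 ratio was 4.44, 4.81, 5.18 and 5.35 in control males and 5.32, 5.51, 5.51 and 6.09 in hypo males. It was 4.82, 5.03, 5.46 and 5.53 in control females and 5.53, 5.69, 5.71, 5.86 and 5.88 in hypo females. The groups touched in females, with each hypo pup above each control pup, and overlapped in males through 1 hypo pup. The log2 fold-change was 0.66 in males, 0.52 in females and 0.59 (SE 0.13, adjusted p = 0.0168, limma) in the mean of both, and the hypo pup was higher on all 7 shared slides.

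Sult1b1 sulfates thyroid hormones and phenols. At its probe A_52_P644613 the log2 ratio was 1.85, 1.99, 2.02 and 2.33 in control males and 2.28, 2.54, 2.54 and 3.12 in hypo males, and it was 1.97, 2.19, 2.22 and 2.33 in control females and 2.30, 2.56, 2.76, 2.79 and 2.79 in hypo females. In each sex the lowest hypo pup lay just below the highest control pup. The log2 fold-change was 0.57 in males, 0.46 in females and 0.52 (SE 0.12, adjusted p = 0.0205, limma) in the mean, and the hypo pup was higher on all 7 shared slides. The other probe of the gene, A_51_P206551, gave 0.32 (SE 0.15, adjusted p = 0.535) and was not called. The reference signal at the called probe was not well above background on any array, while that at the other probe was on 32.

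Acinar markers were raised in 3 of the 8 control livers and in 0 of the 9 hypo livers. Without the 4 livers that held acinar RNA, the log2 fold-change in hypo was 0.63 for Ugt1a9 (adjusted p = 0.0165, limma), 0.62 for Ugt2b35 (adjusted p = 0.0392) and 0.49 for Sult1b1 (adjusted p = 0.161), so that Sult1b1 lost its call. Of these livers, 832, 831 and 543 also lay on the 2 slides scanned last. With litter as a random block, read from the leading digits of each pup's number, the adjusted p was 0.00611, 0.0236 and 0.0314. No hepatocyte marker was called in hypo. All 6 were higher in hypo males (median log2 fold-change 0.33) and all 6 were lower in hypo females (median -0.09). The part of hepatocyte content in the members' values was not tested. Leaving out single pups ended the call of Ugt2b35 for hypo male 576 (0.51, adjusted p = 0.0507), control male 522 (0.51, adjusted p = 0.0540) and control females 523 (0.56, adjusted p = 0.0507) and 882 (0.53, adjusted p = 0.0557). For Sult1b1 the call ended without hypo male 576 (0.43, adjusted p = 0.0596), control male 522 (0.48, adjusted p = 0.0564) and control female 523 (0.48, adjusted p = 0.0658). Ugt1a9 was called whichever pup was left out.

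**Figure D3:**
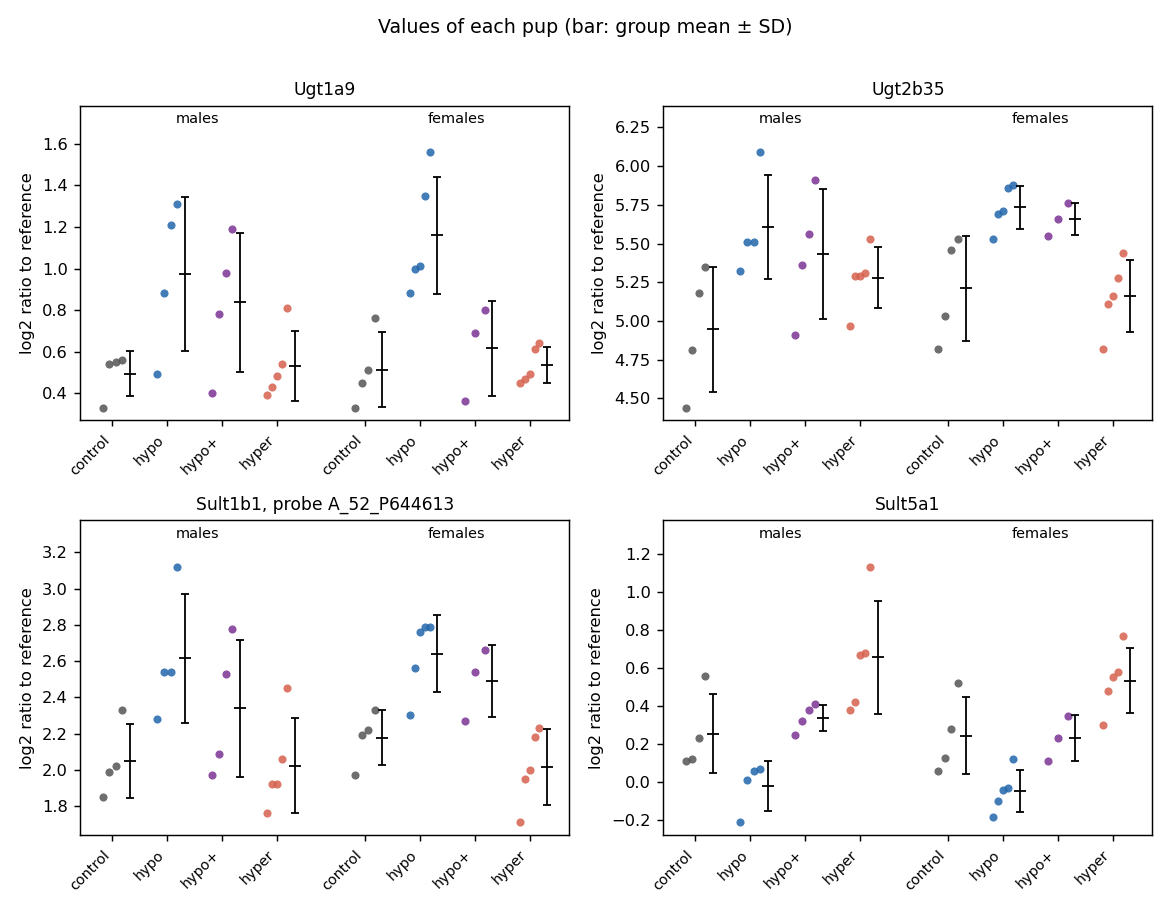
Log2 ratio to the reference (y axis) of each pup in the 8 groups of sex and treatment (x axis), with the group mean and SD as bars, for the 4 genes called in the mean of both sexes. Ugt1a9 spans 0.33 to 0.76 in the 8 controls and 0.49 to 1.56 in the 9 hypo pups, and Sult5a1 spans -0.21 to 0.12 in hypo and 0.30 to 1.13 in hyper pups.

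In exposed pups given hormone, the means of these 3 genes lay between those of hypo and control pups, and no difference from either was called. For Ugt1a9 the hypo+ values were 0.40, 0.78, 0.98 and 1.19 in males and 0.36, 0.69 and 0.80 in females, so that in females every hypo+ pup lay below every hypo pup, where 5.07% of all probes had groups that did not overlap. The log2 fold-change of hypo+ against hypo was -0.34 (SE 0.11, adjusted p = 0.116, limma), with -0.13 in males and -0.54 in females, and the hypo+ pup was lower on all 4 shared slides. Ugt2b35 gave -0.13 (SE 0.14) and Sult1b1 -0.21 (SE 0.12, probe A_52_P644613). Against control, the hypo+ values of Ugt2b35 (4.91, 5.36, 5.56 and 5.91 in males and 5.55, 5.66 and 5.76 in females) gave 0.47 (SE 0.14, adjusted p = 0.123), Sult1b1 gave 0.30 (SE 0.13, adjusted p = 0.345) and Ugt1a9 gave 0.22 (SE 0.12, adjusted p = 0.515). In females every hypo+ pup lay above every control pup for Ugt2b35 and below every control pup for Ugt3a2 at probe A_52_P557240 (1.89 to 2.06 against 2.16 to 2.45), where 5.88% of all probes had groups that did not overlap. The reference signal at this Ugt3a2 probe was well above background on 6 of the 34 arrays. At the other Ugt3a2 probe, A_51_P267063, it was on all 34, and hypo+ and control females overlapped, with means of 4.88 and 4.79. The comparisons share their hypo, hypo+ and control pups with each other.

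In hypo+ against control, 0.743% of all probes were called and 0 of the 35 members, with 5 members at an unadjusted p under 0.05 (limma), where 10.8% of all probes stood. Sult1e1, the estrogen sulfotransferase, had the largest decrease among the members, -0.29 (SE 0.11, adjusted p = 0.288), with values of 0.28 to 0.78 in hypo+ males and 0.20 to 0.89 in hypo+ females against 0.58 to 1.67 in control males and 0.54 to 0.88 in control females. The highest of these values, 1.67, belonged to control male 522. The controls with raised acinar markers were the highest controls (1.67 in 522, 0.93 in male 832 and 0.88 in female 831), and the other controls lay at 0.54 to 0.77. The hypo+ liver with raised acinar markers, female 543, lay at 0.41, below every control. The highest hypo+ female, 601 at 0.89, did not have raised acinar markers. The part of acinar RNA in this decrease was not tested. In hypo+ against hypo, 3.07% of all probes were called and 1 of the 35 members, Sult5a1, with 4 members at an unadjusted p under 0.05 (limma), where 13.6% of all probes stood. Ugt2a1, an isoform of olfactory tissue and liver, gave -0.32 (SE 0.13, adjusted p = 0.209) at probe A_51_P510037, and all of its 3 probes were lower, by 0.12 to 0.32, without a call.

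Sult5a1, a further cytosolic sulfotransferase, had its lowest group means in hypo and its highest in hyper pups of both sexes. In males its log2 ratio was -0.21, 0.01, 0.06 and 0.07 in hypo, 0.11, 0.12, 0.23 and 0.56 in control, 0.25, 0.32, 0.38 and 0.41 in hypo+ and 0.38, 0.42, 0.67, 0.68 and 1.13 in hyper pups. In females it was -0.18, -0.10, -0.04, -0.03 and 0.12 in hypo, 0.06, 0.13, 0.28 and 0.52 in control, 0.11, 0.23 and 0.35 in hypo+ and 0.30, 0.48, 0.55, 0.58 and 0.77 in hyper pups. In males all hypo pups lay below all control and all hypo+ pups, where 3.09% and 4.62% of all probes had groups that did not overlap, and in females these groups overlapped by 1 hypo pup.

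In hyper against control, 0.848% of all probes were called and 0.665% of all probes were called higher, and Sult5a1 was the 1 member of 35, also at an unadjusted p under 0.05 (limma), where 7% of all probes stood. Its log2 fold-change was 0.34 (SE 0.08, adjusted p = 0.0383, limma), with 0.40 in males and 0.29 in females, and the hyper pup was higher on all 8 slides with a control of the same sex. In hypo+ against hypo it was 0.32 (SE 0.09, adjusted p = 0.0461), with the hypo+ pup higher on all 4 shared slides. In hypo against control it was -0.28 (SE 0.09, adjusted p = 0.133) and in hypo+ against control 0.03 (SE 0.09, adjusted p = 0.954). With the litter as a random block, the value in hyper was 0.34 (adjusted p = 0.0527, limma) and that in hypo+ against hypo 0.32 (adjusted p = 0.0577). The latter was 0.30 (adjusted p = 0.124) with slide and 0.31 (adjusted p = 0.0883) with scan day as a fixed block. When 1 pup was left out at a time, the value in hyper was 0.29 to 0.39 and was called in 22 of 34 fits, and was lost without control males 881, 522 and 391, control females 523, 394 and 882, hyper males 784, 696 and 583, or hyper females 585, 499 and 861. The value in hypo+ against hypo was 0.28 to 0.35 and was called in 13 of 34 fits, and was lost without control male 881, control female 523, hypo males 891, 311 and 723, hypo females 743, 721, 316 and 575, hypo+ males 546, 454, 761 and 363, hypo+ females 763, 543 and 601, hyper males 784 and 696, or hyper females 621, 585 and 861. Without the livers that held acinar RNA, the value in hyper was 0.43 (adjusted p = 0.0240, limma) and that in hypo+ against hypo 0.32 (adjusted p = 0.0531).

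Apart from Sult5a1 the families showed no call in hyper livers. The median log2 fold-change of the 35 probes was -0.06, against -0.00301 over all probes, with 14 probes higher and 21 lower. The next largest values were those of Sult2a8, a bile acid sulfotransferase (0.21, SE 0.24, adjusted p = 1.00), and Ugt2a3, which glucuronidates bile acids (-0.21, SE 0.17, adjusted p = 0.970). Neither passed the test.

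Ugt1a transcripts come from 1 locus with alternative first exons and common last exons. In RefSeq, 7 of 9 Ugt1a genes end at the same base, and 3 of the 9 were matched by accession to probes on the array. The position of each probe in its transcript is not given in the sources used here, so that a probe in the common exons would read several Ugt1a transcripts at once, and such a probe cannot be told apart from one in a first exon. The same holds for cross-hybridization between the near-identical Ugt2b genes.

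Of the 4 probes of the locus, that of Ugt1a9 was the 1 called. Ugt1a1, which glucuronidates bilirubin, had log2 ratios of 3.02, 3.49, 3.63 and 3.87 in control males and 2.83, 3.27, 3.30 and 3.73 in hypo males, and of 3.43, 3.56, 3.81 and 4.19 in control females and 3.25, 3.34, 3.42, 3.71 and 3.83 in hypo females. The groups overlapped in both sexes, with a log2 fold-change of -0.23 (95% interval -0.51 to 0.05, adjusted p = 0.760, limma). Without the livers that held acinar RNA this value was -0.07, and among those livers 832, 831 and 543 were also on the arrays scanned last. With scan day as a fixed block the value was -0.18 (SE 0.08), and with slide as a fixed block -0.20 (SE 0.06). The parts of acinar RNA and scan day were not tested apart. At the Ugt1a6b probe A_52_P594636 hypo gave 0.32 (SE 0.09, adjusted p = 0.0996), and at its probe A_51_P308362 0.02 (SE 0.08, adjusted p = 1.00). The difference between the probes was not tested.

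**Figure D4:**
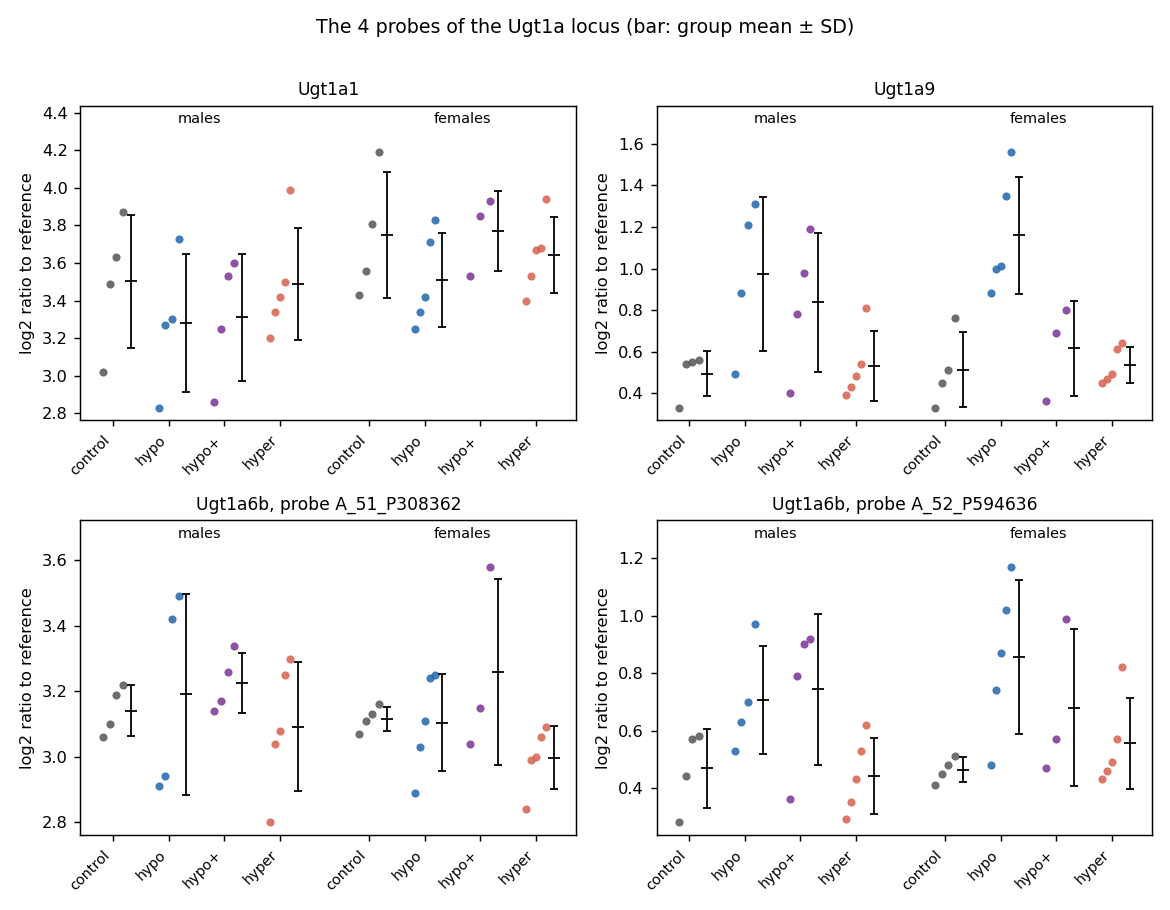
Log2 ratio to the reference (y axis) of each pup by sex and treatment (x axis) at the 4 probes of the Ugt1a locus, with bars for the group mean and SD. The mean of Ugt1a9 is 0.97 in hypo and 0.49 in control males and 1.16 and 0.51 in females, while Ugt1a1 overlaps between hypo and control pups.

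Sult1a1 overlapped between all groups. Its log2 ratio was 5.95, 6.43, 6.57 and 7.08 in control males and 6.42, 6.43, 6.52 and 7.47 in hypo males, and 6.64, 6.69, 6.73 and 7.26 in control females and 6.25, 6.52, 6.54, 6.67 and 7.39 in hypo females. The log2 fold-change was 0.02 in hypo (95% interval -0.35 to 0.39) and -0.08 in hyper (SE 0.18) livers, and an interval of this width leaves room for a change as large as that of Sult5a1.

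Among the subfamilies, the median log2 fold-change in hypo was 0.17 over the 4 Ugt1a probes, 0.11 over the 7 Ugt2b probes, 0.07 over the 4 Ugt2a probes and -0.12 over the Sult2 probes. It was 0.02 over the Sult1 probes, -0.01 over the Ugt3a probes and 0.01 over the Ugt8a probes. For Sult3, Sult4 and Sult5 it was -0.07, -0.03 and -0.28. The Ugt2b median was 0.23 in males, with 7 probes higher, and -0.02 in females, with 3 higher and 4 lower. The genes on chromosome 5 from Ugt2b34 to Sult1e1 stand in an unbroken run of 13 protein-coding genes, all of them Ugt or Sult genes, and Ugt2b35 and Sult1b1 both lie in it. No other member in the run was called in hypo. Of the 7 Ugt2b probes 5 were higher and 2 lower in hypo, and the mean of Sult1e1 was lower in both sexes (0.72 against 0.99 in males, 0.57 against 0.67 in females).

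Between females and males, over all treatments, 0.0996% of all probes were called and 0 of the 35 members, with 6 at an unadjusted p under 0.05 (limma), where 9.37% of all probes stood. Of the 35 probes 28 were higher in females, with a median of 0.07, where 21593 of all 41174 probes were higher, with a median of 0.003. Ugt1a1 was higher by 0.27 (SE 0.10, adjusted p = 0.395) and Ugt2b37 by 0.34 (SE 0.12, adjusted p = 0.398), and as slide and sex coincide on all slides but 1 these cannot be told apart from slides. In the test of whether the response differed between the sexes, 0 probes were called of all probes (0%) and 0 members, with 0 members at an unadjusted p under 0.05 (limma) in hypo, hyper and hypo+, where 1.02%, 1.26% and 1.33% of all probes stood.

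Genes that supply or follow these enzymes were counted on lists chosen with earlier results of these data known. Of 5 genes of UDP-glucuronic acid supply, 2 were called higher in hypo, Ugdh, which makes UDP-glucuronic acid (0.48, SE 0.07, adjusted p = 0.000141, limma), and Ugp2, which makes UDP-glucose (0.47, SE 0.08, adjusted p = 0.000410). By sign, 4 of the 5 were higher in hypo and 1 was lower. In hypo+ against hypo 3 were called lower, Ugdh (-0.32, adjusted p = 0.00998), Ugp2 (-0.41, adjusted p = 0.00177) and the UDP-sugar transporter Slc35d2 (-0.42, adjusted p = 0.00427). Of 5 genes of PAPS supply, 0 were called in hypo and 1 was called higher in hypo+ against hypo, the PAPS synthase Papss2 (0.58, SE 0.15, adjusted p = 0.0200). Of 11 transporters of conjugates, only the exporter Abcc3 was called higher in hypo (0.60, SE 0.14, adjusted p = 0.0247) and in hypo+ against control (0.69, SE 0.15, adjusted p = 0.0249). Of 4 deconjugating enzymes 0 were called in any comparison.

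Dio1, the deiodinase that converts T4 to T3 in liver, fell by 1.62 on the log2 scale in hypo (adjusted p = 1.99e-06, limma) and was 1.77 higher in hypo+ than in hypo (adjusted p = 1.68e-07). Of 7 thyroid hormone responsive genes, some of which the study picked from these livers, 6 were called lower in hypo and 5 were called higher in hyper. By sign, all 7 were lower in hypo, and in hyper 6 were higher and 1 was lower. Of 10 targets of the oxidant sensor NRF2, 7 were called higher in hypo, with Gstm1 at 1.46 (adjusted p = 3.57e-08) and Nqo1 at 0.85 (adjusted p = 2.22e-05), and 5 were called higher in hypo+ against control. By sign, 9 of the 10 were higher and 1 was lower in each of these comparisons. Of 10 targets of CAR and PXR, the receptors that sense drugs, 1 was called higher in hypo, Cyp2c55 (0.52, adjusted p = 0.00375), and of 6 AHR targets 0 were called there. By sign, 6 of the 10 CAR and PXR targets were higher in hypo and 4 were lower. Of 15 receptors and factors known to act on the members, Esr1 and Nr3c1 were called lower in hypo and higher in hypo+ against hypo. Among 12 other conjugating enzymes, Gstp1 was called higher in hypo and in hypo+ against control. The AHR target Tiparp was called higher in hyper and in hypo+ against hypo. The part of these genes in the members' values was not tested.

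The 8 arrays scanned last, 1 from each group, were the highest of their group in all 8 groups at 8 of the 35 probes. These were the probes of Sult1a1, Ugt2a3, Ugt2b36, Ugt2b38, Ugt2b5 and Ugt3a1, and A_51_P281568 and A_52_P430755 of Sult2a2. The share over all probes was not computed, so that this count is not a result about these genes.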

How the data were processed

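Liver RNA of 34 pups was hybridised to Agilent whole genome arrays with a universal reference. The deposited scanner files hold median intensity per spot for each channel, written by the authors' Feature Extraction software, with its log10 ratios. The deposited value table holds the authors' processed log2 values, used as a check on the arrays and as an alternative.

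Median intensities without background subtraction were loess-normalized within arrays with limma 3.58.1 in R 4.3.3. Spots marked as outliers were dropped (one Ugt3a1 spot among the members) and spots averaged to 41174 probes. RefSeq accessions gave symbols for 16806 of 33541 names. Per-sex fits held 17 arrays, and 1 fit held all 34 in 8 groups, with p-values adjusted by Benjamini-Hochberg. The fits were tested on simulated data with independent normal noise for each probe and array. These data held no slide, scan day, litter or acinar differences, so that the test does not cover them. Members and lists were chosen with earlier results of these data known. Named were called members, Ugt1a1, Sult1a1, Ugt1a9, the 3 largest changes per comparison, the 3 highest and 3 lowest control ratios, pups apart from their group, and some of the called genes of the lists. Of 159 listed genes, 142 were matched by accession to probes on the array. Alternatives covered background correction, normalization, filter, blocks and leaving out each pup. Proteins and probe sequences were not used here.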

Additional observations from a re-analysis of the deposited data

Results flagged for a closer look

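Of 245 tests of a probe within a group of 4 or 5 pups, 22 found 1 pup apart from the rest by Dixon's gap, where chance gives about 1 in 20 for normally spread values. The tests share arrays and the share over all probes was not computed, so that the number of flags is not a result about these genes. Of the 22, 11 belong to 6 pups (576, 831, 832, 784, 585 and 721) whose arrays lay on the 2 slides scanned last, where Sult1a1 was higher than in the other pups of the groups by a mean of 0.72. For Sult1a1 (probe A_51_P321341) the log2 ratio of the pup apart was 7.47 in hypo male 576 and 7.26 in control female 831. For Sult2a2 (probe A_51_P281568) the log2 ratio of the pup apart was 8.1 in hypo male 576. For Sult2a2 (probe A_52_P430755) the log2 ratio of the pup apart was 5.6 in control male 832. For Sult2a8 (probe A_51_P189733) the log2 ratio of the pup apart was 5.76 in hypo+ male 454. For Sult2b1 (probe A_51_P403170) the log2 ratio of the pup apart was -0.25 in hyper female 783. For Sult3a1 (probe A_51_P426513) the log2 ratio of the pup apart was 0.3 in hyper male 696, -0.02 in hypo+ male 761 and -0.15 in hypo female 893. For Sult4a1 (probe A_52_P562676) the log2 ratio of the pup apart was -0.3 in control male 522. For Ugt1a9 (probe A_52_P156806) the log2 ratio of the pup apart was 0.33 in control male 391. For Ugt2a1 (probe A_52_P659163) the log2 ratio of the pup apart was 0.6 in hyper male 784, 0.74 in hypo male 576 and -0.01 in hypo+ male 363. For Ugt2a3 (probe A_51_P298023) the log2 ratio of the pup apart was 7.29 in hypo male 576, 5.83 in hypo+ male 761 and 6.93 in control female 831. For Ugt2b1 (probe A_51_P245503) the log2 ratio of the pup apart was 4.19 in hypo female 316. For Ugt2b5 (probe A_52_P501007) the log2 ratio of the pup apart was 7.35 in control female 831, 7.17 in hyper female 585 and 7.55 in hypo female 721. For Ugt8a (probe A_51_P506822) the log2 ratio of the pup apart was -0.14 in hypo+ male 454.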

How the results depend on the processing

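Each count of called members was recomputed under 13 alternatives (12 for females against males). In hypo against control, mean of both sexes, 3 members became 1 with normexp, 0 with median centring, 0 with the scanner's log ratios, 5 with Cy5 alone and 5 with scan day as a block. In hypo females 0 became 1 with the filter on dim probes, with slide as a random block and with scan day. In hyper, 1 became 0 with normexp, median centring, Cy5 alone, only the groups compared, litter and scan day. In hypo+ against hypo, 1 became 0 with normexp, median centring, Cy5 alone, litter and without arrays with acinar RNA, and with slide or scan day as a fixed block the 1 call was Sult1c1, lower, in place of Sult5a1. Scan day and the acinar arrays were chosen after seeing the data. Ugt1a9 in hypo was called in 11 of 13 alternatives (0.47 to 1.00), Ugt2b35 in 9 (0.25 with the scanner's log ratios to 0.88), Sult1b1 in 8 (0.42 to 0.65), and Sult5a1 in 7 for hyper (0.20 with Cy5 alone to 0.48) and 6 for hypo+ against hypo (0.20 with median centring to 0.48). Ugt1a1 in hypo lay between -0.31 and -0.06 and was not called in any of the 13. In hyper, Sult1a1 turned to 0.11 without the acinar arrays, and Ugt1a1 to 0.037 with Cy5 alone and 0.10 without the acinar arrays. The cause was not tested. Leaving out 1 pup gave 1 to 4 members in hypo (1 without hypo male 576, control male 522 or control female 523), 0 to 1 in hypo females, 0 to 1 in hyper and 0 to 1 in hypo+ against hypo. It gave -0.10 to 0.12 for Sult1a1 in hypo, -0.18 to 0.012 for Sult1a1 in hyper and -0.14 to 0.015 for Ugt1a1 in hyper. No paired analysis was possible because animal numbers do not recur across groups, so that no number pairs the pups, and slides were used as blocks instead. The reference signal of Ugt1a9 and Sult1b1 was often not well above background, which limits their ratios.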
